A study of Mus musculus with 28 samples.

Results

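Solute carriers are the membrane proteins, named Slc in the mouse, that move sugars, amino acids, metal ions, phosphate, nucleotides and other small molecules into and out of cells and organelles. They were taken by name: every gene symbol of the form Slc, a family number, the letter a and a member number that stood in both expression tables, leaving out Slc2a1 and Slc30a1. This gave 141 genes in 37 families, out of 12274 genes in both tables and 13394 in either. The cells were MC38, a mouse colon carcinoma line, and the RNA was read from the 3' end of transcripts, so that the value of a gene does not grow with the length of its transcript.

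In one experiment, MC38 cells were grown in vitro for 6 hours with the cytokine TNF, with the cytokine IFNG, or with TNF + IFNG, or were given supernatant of a co-culture for a time that the labels do not record, and the reference was untreated cells, with 2 libraries in each of the 5 groups. In the other, MC38 cells were cultured for 6 hours with OT1 T cells, CD8 T cells with a transgenic receptor for an ovalbumin peptide, and either an isotype control antibody or an antibody against PD1, an inhibitory receptor of T cells. The reference there was MC38 alone, with 3 libraries in each of the 3 groups. The 9 samples of OT1 T cells themselves were not analysed here. All values are log2 CPM, read counts scaled to a common library total, and a gene was called where limma's moderated test gave an adjusted p under 0.05 over all genes of its table. The labels do not say that replicates came from separate cultures, so p-values measure only how these samples vary, which may be technical variation.

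Transporters set which nutrients a tumour cell can use, and several belong to known cytokine or stress programmes. Activated macrophages raise the arginine transporter Slc7a2 to feed nitric oxide synthase, inflammatory signals act on iron and zinc transporters, and the transcription factor ATF4 raises amino acid transporters such as Slc7a11 and Slc7a5 when amino acids or redox balance are limiting. Mitochondrial carriers of the Slc25 family form the largest group and link the cytosol with metabolism inside mitochondria. Some carriers work in pairs with a partner chain: Slc3a2 is the heavy chain that takes Slc7a5 or Slc7a11 to the cell surface.

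The implied depth was 3360000 to 11200000 reads per in vitro library and 3730000 to 11000000 per co-culture library. As a check of the treatments, 2 known targets were read. Irf1, an interferon and NF-kB target, was higher by 2.47 to 3.44 on the log2 scale in the 4 in vitro treatments and by 3.35 and 3.44 in the co-cultures with isotype and anti-PD1, and Nfkbia, an NF-kB target, was higher by 3.39 with TNF and 3.02 with TNF + IFNG, all past the threshold. Labels disagreed for the third anti-PD1 library, which is untreated by its title but a PD1 co-culture by its description. The description decided its group, and no measured value did. One label of the second isotype library names OT2 and not OT1. Of the cell type markers, 5 of 7 mesenchymal genes were listed in co-culture, with sums of 1407 to 1849 CPM, whereas the 5 of 11 epithelial genes listed reached 1.61 to 33.3 CPM. Vim was the highest mesenchymal gene, at 10.05 to 10.44 log2 CPM, whereas Acta2 lay at −2.74 to 0.50 and Col1a1 and Col1a2 were not listed. The epithelial sum of 33.3 CPM was that of 1 anti-PD1 library, in a group with a median of 2.94.

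T cell RNA was read with that of MC38 in the co-culture table. The 18 of 23 T cell genes listed there summed to 173 to 204 CPM in the isotype libraries and 166.5 to 197.5 CPM in the anti-PD1 libraries, against 4.95, 5.84 and 81.5 CPM in the first, the second and the third library of MC38 alone. The third MC38 alone library thus stood apart. Its 15 T cell lineage genes summed to 66.9 CPM, within the 53.3 to 72.9 CPM of the co-cultures, whereas Ifng stood at 3.60 CPM there, against 77.0 to 101 CPM in the co-cultures. It also had the lowest implied depth of the co-culture table and a Pearson correlation of 0.921 and 0.922 over genes with the other MC38 alone libraries, which correlated at 0.969 with each other. In such bulk samples fewer cells of a type and less RNA per cell cannot be told apart, and the part of T cell RNA in any co-culture result below was not tested. The results are therefore also given without that library.

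By level, mitochondrial and zinc carriers led both tables. In co-culture the highest means over all libraries were those of Slc39a1, a zinc importer (8.85 log2 CPM), Slc30a4, which loads zinc into vesicles (8.62), the mitochondrial phosphate carrier Slc25a3 (8.50), the ADP and ATP exchanger Slc25a4 (8.43), the mitochondrial iron importer Slc25a37 (7.90) and the lactate exporter Slc16a3 (7.86). They were followed by Slc25a39 (7.49), which carries glutathione into mitochondria, the phosphate importer Slc20a1 (7.35), and the zinc transporters Slc39a7 (7.06) and Slc39a10 (6.93). In vitro Slc25a4 (9.15), Slc25a3 (8.63), Slc39a1 (8.61), Slc16a3 (8.46), the myo-inositol importer Slc5a3 (7.83), Slc25a39 (7.60), Slc39a7 (7.41), Slc30a4 (7.39), the taurine importer Slc6a6 (7.20) and the zinc importer Slc39a6 (7.14) led. The tables were normalized separately, so levels of one are not set against the other. The 3' end of Slc39a7 overlaps exons of Gm20427 on the same strand, and its reads are uncertain as those of a single gene. Slc16a6, Slc25a26, Slc29a1 and Slc48a1 overlap exons on the opposite strand, and the sources used here do not give strand use in counting.

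In culture with OT1 T cells, with either antibody, the arginine importer Slc7a2, the cystine exchanger Slc7a11, the hexose carrier Slc2a6, the iron carrier Slc11a2 and the zinc carrier Slc30a4 were among the carriers that rose, and the myo-inositol importer Slc5a3 fell. Against MC38 alone, 14 of 141 solute carriers rose and 10 fell, 17% in all, where 13.9% of all 12707 genes tested were called, 7.64% upward and 6.22% downward. With anti-PD1, 18 rose and 10 fell, 19.9%, against 16.1% of all genes, 8.42% upward and 7.71% downward. These shares lie close to the background, so the result is about which carriers moved and not about how many. The median log2 fold of the 141 was 0.00 with isotype and 0.07 with anti-PD1, and that of all genes was −0.06 in both. All isotype libraries lay above all MC38 alone libraries for 28 carriers and below them for 26, where 14.2% and 17.7% of all genes did so, and the anti-PD1 libraries did for 30 and 24, where 15% and 18.2% of all genes did. The 2 comparisons share the MC38 alone libraries: 20 carriers were called in both, each in the same direction, and 32 in either. How many of all genes were called in both or in either was not counted.

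**Figure D1:**
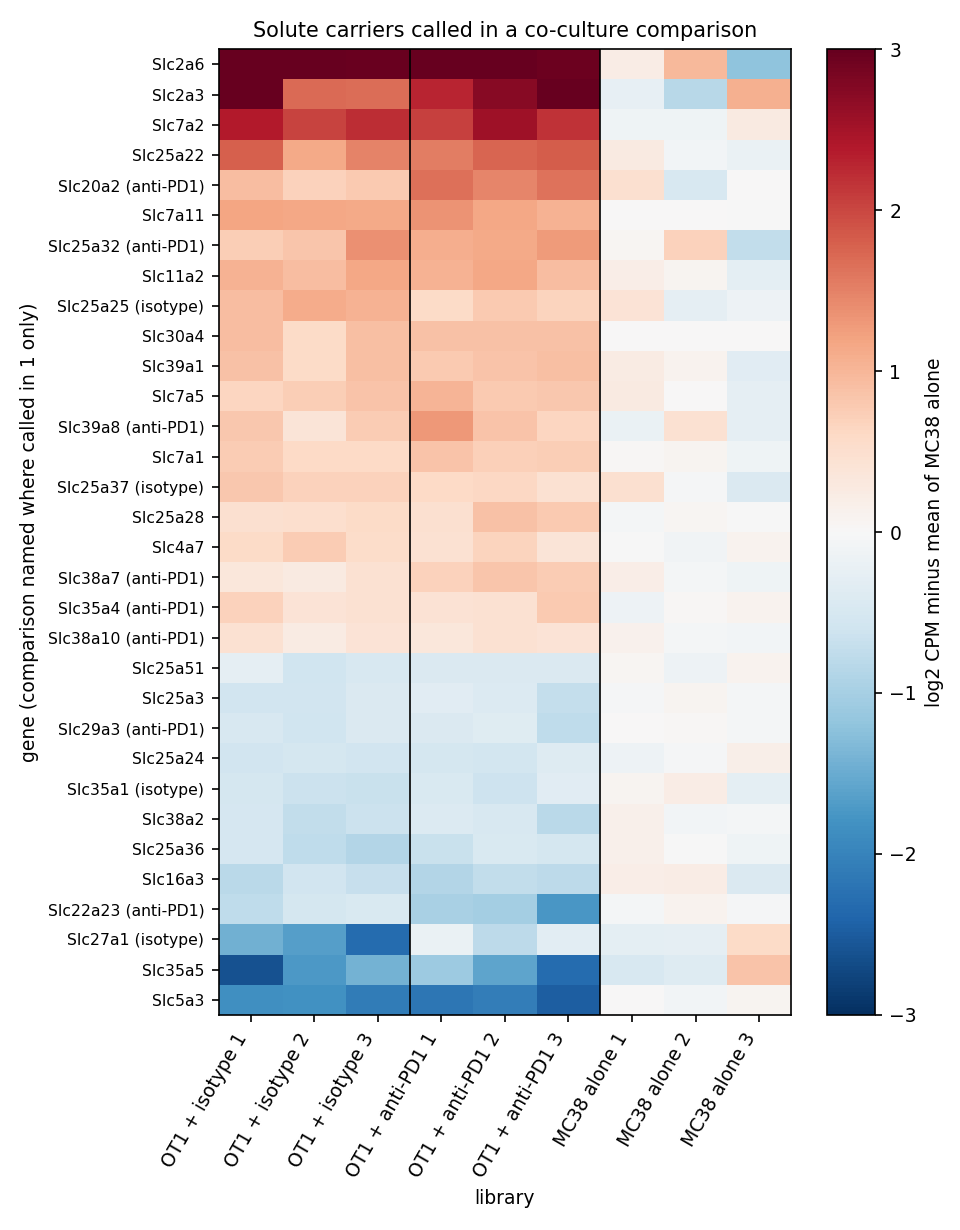
Each row is 1 of the 32 solute carriers called in a co-culture comparison and each column 1 library; colour gives the log2 CPM minus the mean of MC38 alone, from −3 (blue) to 3 (red). Slc2a6, Slc2a3 and Slc7a2 are red in all 6 co-culture libraries and Slc5a3 is blue in all 6, and Slc27a1 is bluer with isotype than with anti-PD1.

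Without the third MC38 alone library, 15 rose and 17 fell with isotype and 16 rose and 18 fell with anti-PD1. Of the calls above, 23 of 24 and 25 of 28 remained, 27 carriers were called in both comparisons, and the ones lost were Slc35a5 in both and Slc38a10 and Slc39a8 with anti-PD1. Without the third anti-PD1 library, whose labels disagree, 12 rose and 3 fell with anti-PD1, and all 15 were among the 28. Leaving out the first or second library of that group gave 18 and 17 calls. In all, 10 members were called in both comparisons under every alternative tried: Slc2a6, Slc7a2, Slc25a22, Slc7a11, Slc11a2, Slc30a4, Slc39a1, Slc7a5 and Slc7a1 rose and Slc5a3 fell.

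Slc2a6 encodes a hexose transporter of the glucose transporter family that sits on lysosomes. It stood at 3.07, 3.00 and 2.81 log2 CPM with isotype and 2.86, 2.86 and 2.78 with anti-PD1, against 0.06, 0.81 and −1.36 in MC38 alone. All 6 co-culture libraries lay above the 3 of MC38 alone, of which the third was near the floor of its library. The rise was 8.71-fold with isotype (log2 3.12 ± 0.46 SE, adjusted p = 0.00139, limma) and 7.96-fold with anti-PD1 (2.99 ± 0.46, adjusted p = 0.00169), and without the third MC38 alone library the log2 folds were 2.52 and 2.40. Slc2a3, a high-affinity glucose importer, stood at 2.31, 0.90 and 0.88 with isotype and 1.50, 1.95 and 2.25 with anti-PD1, against −1.03, −1.63 and 0.29 in MC38 alone. The groups did not overlap, and the value in the second MC38 alone library was near its floor. The log2 folds were 2.15 ± 0.57 (adjusted p = 0.032) and 2.69 ± 0.57 (adjusted p = 0.0109), and 2.69 and 3.23 without the third MC38 alone library. When the third anti-PD1 library was left out, Slc2a3 was called in neither comparison.

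Among amino acid carriers, Slc7a2, Slc7a11, Slc7a1 and Slc7a5 rose in both comparisons. Slc7a2, an importer of arginine and other cationic amino acids, stood at 3.59, 3.24 and 3.43 log2 CPM with isotype and 3.27, 3.77 and 3.39 with anti-PD1, against 1.08, 1.08 and 1.49 in MC38 alone. The lowest co-culture library was over 1 log2 unit above the highest of MC38 alone. The log2 folds were 2.20 ± 0.22 (adjusted p = 0.000109) and 2.26 ± 0.22 (adjusted p = 9.51e-05). Slc7a11, the light chain of the cystine and glutamate exchanger that supplies cysteine for glutathione, stood at 5.57, 5.53 and 5.53 with isotype and 5.72, 5.55 and 5.43 with anti-PD1, against 4.39, 4.38 and 4.37 in MC38 alone. The 3 libraries of MC38 alone hardly differed, and the log2 folds were 1.16 ± 0.11 (adjusted p = 8.97e-05) and 1.19 ± 0.11 (adjusted p = 8.3e-05).

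The other cationic and large neutral amino acid carriers moved less. Slc7a1, the general arginine and lysine importer, stood at 6.73, 6.57 and 6.55 log2 CPM with isotype and 6.81, 6.69 and 6.69 with anti-PD1, against 6.00, 6.04 and 5.84 in MC38 alone, with log2 folds of 0.65 ± 0.11 (adjusted p = 0.00237) and 0.77 ± 0.11 (adjusted p = 0.000831). Slc7a5, the light chain of the exchanger that brings in leucine and other large neutral amino acids, stood at 5.60, 5.68 and 5.81 with isotype and 5.97, 5.73 and 5.74 with anti-PD1, against 5.22, 4.96 and 4.67 in MC38 alone. Its log2 folds were 0.75 ± 0.15 (adjusted p = 0.00927) and 0.87 ± 0.15 (adjusted p = 0.00389), and the groups did not overlap. Slc3a2, the heavy chain that both Slc7a5 and Slc7a11 need, was not called, at −0.05 with isotype (95% interval −0.30 to 0.20) and 0.15 with anti-PD1 (−0.10 to 0.40). Slc38a2, a sodium-coupled importer of small neutral amino acids, fell, at 6.46, 6.23 and 6.33 with isotype and 6.57, 6.49 and 6.16 with anti-PD1, against 7.12, 6.89 and 6.90 in MC38 alone (log2 −0.63 ± 0.13 and −0.56 ± 0.13, adjusted p = 0.0108 and 0.0182). Of all 21 amino acid carriers, 4 rose and 1 fell with isotype, where 7.64% of all genes rose and 6.22% fell. With anti-PD1 6 rose and 1 fell, where 8.42% of all genes rose and 7.71% fell, the further ones being Slc38a7, a glutamine carrier of lysosomes (0.76 ± 0.18, adjusted p = 0.0167), and Slc38a10, a family member of less settled function (0.40 ± 0.11, adjusted p = 0.0411).

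Slc7a1, Slc7a11, Slc7a5 and Slc38a2 are also on the list of 9 reported ATF4 targets, of which 3 rose and 1 fell in each co-culture comparison, where 13.9% and 16.1% of all genes were called. The list's median log2 fold was 0.02 with isotype and 0.18 with anti-PD1. Its other members were not called: Slc1a4, Slc1a5 and Slc6a9, carriers of neutral amino acids or glycine, stood at −0.13, −0.30 and 0.02 with isotype and −0.02, −0.20 and 0.18 with anti-PD1. Slc7a3, a further arginine carrier, lay near the floor, between −1.63 and 0.88 log2 CPM in every co-culture library.

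Some metal carriers were also called. Slc11a2, which carries ferrous iron and other divalent metals out of the gut lumen or the endosome, stood at 7.26, 7.13 and 7.38 log2 CPM with isotype and 7.25, 7.37 and 7.14 with anti-PD1, against 6.43, 6.30 and 5.92 in MC38 alone. Every co-culture library was above every MC38 alone library, with log2 folds of 1.04 ± 0.14 in both (adjusted p = 0.000854 and 0.000863), or 0.89 in both without the third MC38 alone library. The mitochondrial iron importer Slc25a28 rose by 0.52 ± 0.15 with isotype (adjusted p = 0.0403) and 0.71 ± 0.15 with anti-PD1 (adjusted p = 0.00891). Its paralog Slc25a37 rose with isotype (0.73 ± 0.19, adjusted p = 0.0292) and stood at 0.56 ± 0.19 with anti-PD1 (adjusted p = 0.0746). Of 10 iron, copper and magnesium carriers 3 rose with isotype and 2 with anti-PD1, and none fell, where 7.64% and 8.42% of all genes rose.

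Of 15 zinc carriers 2 rose with isotype and 3 with anti-PD1, and none fell, which is near the 13.9% and 16.1% of all genes called, with list medians of 0.32 and 0.31. Slc30a4, which moves zinc from the cytosol into vesicles, stood at 8.98, 8.64 and 8.96 log2 CPM with isotype and 8.94, 8.95 and 8.94 with anti-PD1, against 8.07 in each MC38 alone library (log2 folds 0.79 ± 0.11 and 0.88 ± 0.11, adjusted p = 0.000763 and 0.000389). The groups did not overlap, although Slc30a4 was already one of the most abundant carriers of MC38 alone. Slc39a1, which moves zinc the other way, into the cytosol, stood at 9.20, 8.88 and 9.21 with isotype and 9.10, 9.17 and 9.20 with anti-PD1, against 8.56, 8.42 and 7.96 in MC38 alone (0.78 ± 0.16 and 0.85 ± 0.16, adjusted p = 0.0084 and 0.00512). Slc39a8, an importer of zinc and manganese that NF-kB is known to raise in human cells, passed with anti-PD1 (0.94 ± 0.27, adjusted p = 0.0433) and not with isotype (0.66 ± 0.27, adjusted p = 0.148). Slc39a14, a zinc and iron importer that interleukin-6 raises in liver, stood at 0.03 in the third MC38 alone library and at 2.96 to 3.30 in the other 8, and was not called (1.14 ± 0.68 with isotype, adjusted p = 0.307).

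**Figure D2:**
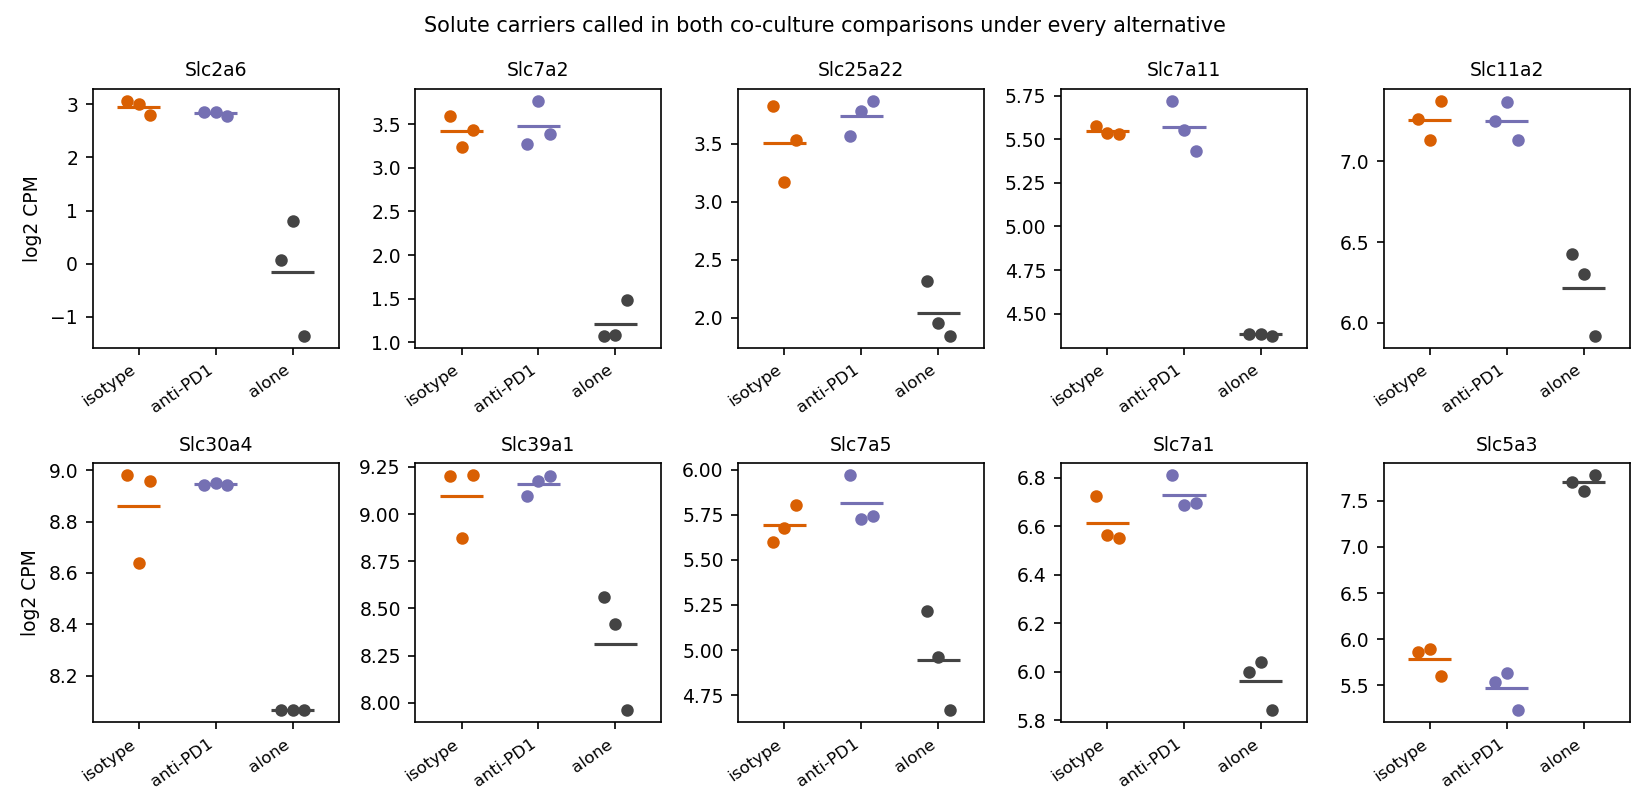
Each panel shows 1 of the 10 solute carriers called in both co-culture comparisons under every alternative, with log2 CPM on the vertical axis, 1 point per library and a line at the group mean, for isotype, anti-PD1 and MC38 alone. In 9 panels all 6 co-culture libraries lie above the 3 of MC38 alone, and for Slc5a3 they lie below them.

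Of the carriers called in both comparisons, Slc5a3 had the largest fall. It imports myo-inositol with sodium and serves cells as an osmolyte carrier. Slc5a3 stood at 5.86, 5.89 and 5.60 log2 CPM with isotype and 5.53, 5.63 and 5.23 with anti-PD1, against 7.71, 7.61 and 7.78 in MC38 alone. The gap between the groups was over 1 log2 unit. Slc5a3 fell by 1.92 ± 0.13 on the log2 scale with isotype (adjusted p = 7.8e-06) and by 2.24 ± 0.13 with anti-PD1 (adjusted p = 2.39e-06), so that 0.265 and 0.212 of its MC38 alone level was left. Slc35a5, of the nucleotide sugar carrier family, stood at −0.19, 0.70 and 0.99 with isotype and 1.33, 0.84 and 0.11 with anti-PD1, against 1.93, 2.04 and 3.28 in MC38 alone. Its log2 folds of −1.92 ± 0.50 and −1.65 ± 0.50 (adjusted p = 0.0287 and 0.0475) rest on low levels, and without the third MC38 alone library it was not called, at −1.48 and −1.22.

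Mitochondrial carriers moved in both directions. Of 32, 4 rose and 4 fell with isotype and 3 rose and 4 fell with anti-PD1, with medians of 0.08 and 0.02, where 13.9% and 16.1% of all genes were called. Slc25a22, which brings glutamate into mitochondria, stood at 3.83, 3.17 and 3.53 log2 CPM with isotype and 3.57, 3.78 and 3.87 with anti-PD1, against 2.32, 1.96 and 1.85 in MC38 alone. All 6 co-culture libraries were higher, 2.76-fold with isotype (adjusted p = 0.00171) and 3.24-fold with anti-PD1 (adjusted p = 0.000668), each with an SE of 0.22 on the log2 scale. Slc25a25, a calcium-dependent carrier of ATP-Mg and phosphate, rose with isotype (1.02 ± 0.23, adjusted p = 0.0161) and stood at 0.68 ± 0.23 with anti-PD1 (adjusted p = 0.0751). Its paralog Slc25a24, with the same kind of substrate, fell by 0.57 ± 0.12 with isotype and by 0.49 ± 0.12 with anti-PD1 (adjusted p = 0.0108 and 0.0205). Slc25a32, a carrier of folate or flavin, rose with anti-PD1 (1.17 ± 0.33, adjusted p = 0.0383) and stood at 0.98 ± 0.33 with isotype (adjusted p = 0.0807).

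The other mitochondrial carriers that fell were abundant ones. Slc25a3, the phosphate and copper carrier, averaged 8.31 ± 0.09 log2 CPM with isotype and 8.35 ± 0.20 with anti-PD1, against 8.84 ± 0.06 in MC38 alone (SD, n = 3 each). Slc25a36, a carrier of pyrimidine nucleotides, averaged 5.13 ± 0.19 and 5.30 ± 0.11 in those co-cultures, against 5.85 ± 0.13 in MC38 alone. Slc25a51, the carrier of NAD, averaged 6.54 ± 0.16 and 6.55 ± 0.01, against 6.99 ± 0.14 in MC38 alone. Their log2 folds were between −0.43 and −0.71 in both comparisons, and the groups of each did not overlap.

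Single members of other classes also passed. Slc16a3, the lactate exporter of glycolytic cells, stood at 7.56, 7.79 and 7.67 log2 CPM with isotype and 7.49, 7.62 and 7.57 with anti-PD1, against 8.57, 8.58 and 7.93 in MC38 alone. The third MC38 alone library lay nearest to the co-cultures, and the log2 folds of −0.69 ± 0.16 and −0.80 ± 0.16 (adjusted p = 0.0204 and 0.00906) were −0.91 and −1.02 without it. Slc4a7, a sodium and bicarbonate importer that holds cell pH, rose by 0.63 ± 0.12 with isotype and 0.51 ± 0.12 with anti-PD1 (adjusted p = 0.00584 and 0.0168). Slc20a2, a phosphate importer, stood at 3.03, 2.81 and 2.89 with isotype and 3.76, 3.56 and 3.74 with anti-PD1, against 2.58, 1.64 and 2.11 in MC38 alone. It passed with anti-PD1 (1.58 ± 0.24, adjusted p = 0.00174) and not with isotype (0.80 ± 0.24, adjusted p = 0.0561).

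The rest of the calls were in 1 comparison. With isotype, Slc35a1, which carries CMP-sialic acid into the Golgi, fell by 0.62 ± 0.16 (adjusted p = 0.0263), and Slc27a1, a fatty acid importer, stood at 0.03, −0.19 and −0.84 log2 CPM, against 1.17, 1.19 and 2.04 in MC38 alone (−1.80 ± 0.41, adjusted p = 0.0171). With anti-PD1, Slc27a1 stood at 1.25, 0.69 and 1.15 and was not called (−0.43 ± 0.41, adjusted p = 0.526). Slc29a3, a nucleoside carrier of lysosomes, fell with anti-PD1 (−0.52 ± 0.15, adjusted p = 0.046) and had −0.51 ± 0.15 with isotype (adjusted p = 0.0525). Slc22a23, an orphan member of the organic ion carriers, fell with anti-PD1 (−1.24 ± 0.34, adjusted p = 0.0345), and Slc35a4, of the nucleotide sugar carrier family, rose (0.57 ± 0.16, adjusted p = 0.0365). None of these differences between the antibodies passed when tested directly, as given below. Without the third MC38 alone library, Slc35a4 also passed with isotype (0.58, adjusted p = 0.0333, limma) and Slc35a1 with anti-PD1 (−0.62, adjusted p = 0.00804, limma). Slc22a23 stood at −0.60 with isotype in that fit and was not called.

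**Figure D3:**
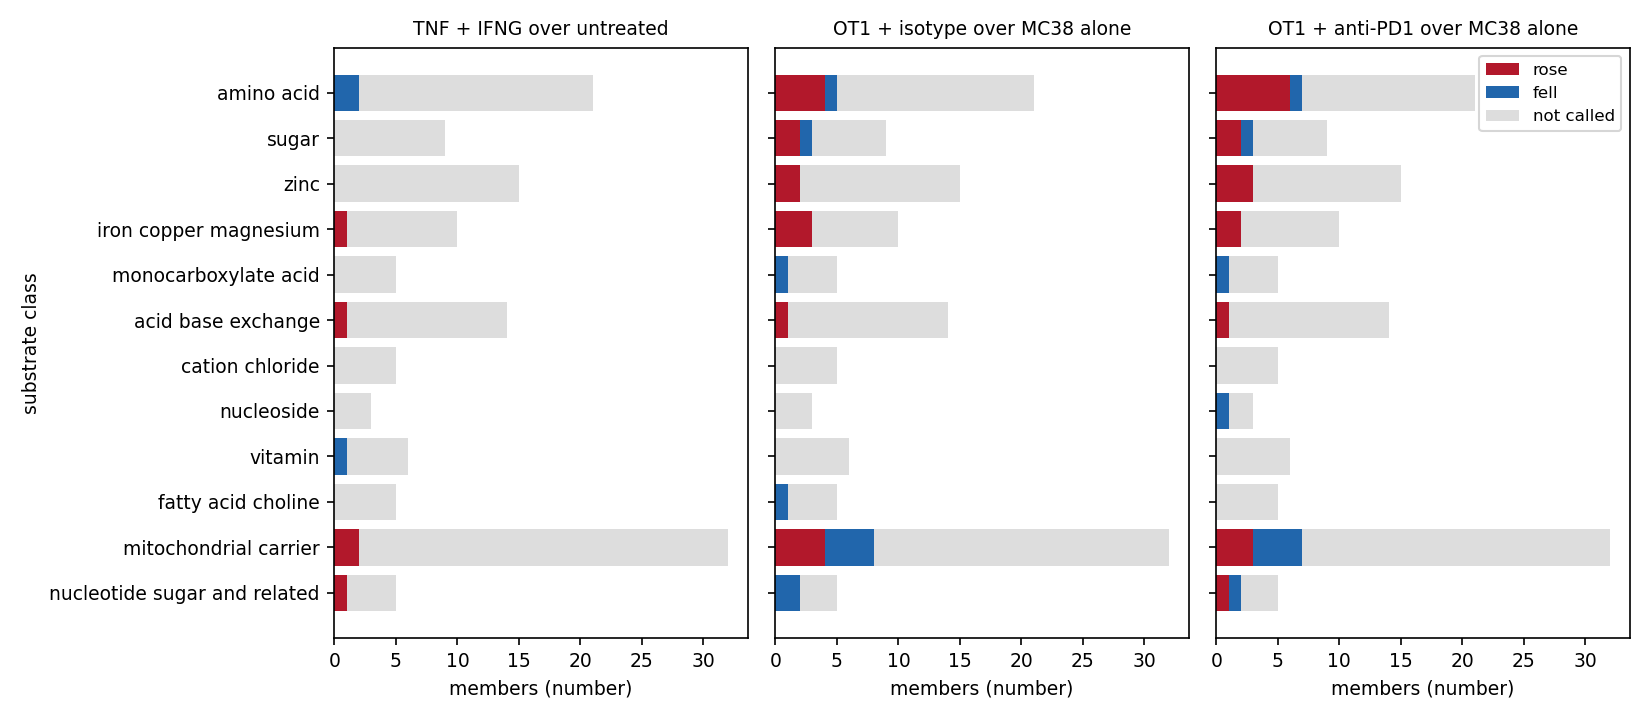
Bars give the number of solute carriers that rose (red), fell (blue) or were not called (grey) in each substrate class, for TNF + IFNG over untreated, OT1 with isotype over MC38 alone, and OT1 with anti-PD1 over MC38 alone. Zinc and iron carriers that were called in co-culture rose, and the 32 mitochondrial carriers hold calls in both directions.

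A list of 9 carriers that inflammatory signals are reported to act on was followed through both experiments, with 6 members in the tables: Slc2a6, Slc7a2, Slc11a2, Slc25a28, Slc39a8 and Slc39a14. With isotype 4 rose and with anti-PD1 5, where 7.64% and 8.42% of all genes rose, with medians of 1.09 and 1.01 on the log2 scale, against −0.06 over all genes. The list was drawn up with earlier results of these data known, so its counts are a description. In vitro none of the 6 was called with TNF, IFNG, TNF + IFNG or supernatant, with medians of 0.02, −0.16, 0.15 and −0.02. Slc7a2 stood at 2.42 and 2.40 log2 CPM with TNF, 0.66 and 1.38 with IFNG, 1.78 and 1.69 with TNF + IFNG and 1.17 and 0.56 with supernatant, against 1.56 and 0.77 in untreated cells. The TNF libraries lay above both untreated ones (1.24 ± 0.40, unadjusted p = 0.0127, adjusted p = 0.613). Slc2a6 stood at 1.90 and 0.89 with TNF, −0.89 and 0.10 with IFNG, 0.77 and 1.04 with TNF + IFNG and 0.16 and 0.10 with supernatant, against 0.38 and 0.39 in untreated cells. It was not called in any of these, and its log2 fold with TNF was 1.01 ± 0.50 (adjusted p = 0.81).

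The share of calls differed by level. Of the 58 carriers with a mean of at least 4 log2 CPM in co-culture, 29.3% were called with isotype and 29.3% with anti-PD1, where 19% and 21.8% of all 6152 genes at that level were. Of the 83 carriers below it 8.43% and 13.3% were called, where 9.03% and 10.8% of 6555 genes were. With TNF + IFNG 7.81% of 64 carriers at 4 or above and 5.19% of 77 below were called, where 12.2% and 6.05% of all genes at these levels were. At low levels the intervals are wide. The median half-width of the 95% interval of a carrier's log2 fold was 0.50 in co-culture and 0.58 in vitro, or 0.82 for the interaction.

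Promoters of the carriers with the largest changes are printed here to show what sequence lies at their starts. Of the 8 members changed at least 2-fold in both co-culture comparisons (Slc2a3, Slc2a6, Slc5a3, Slc7a2, Slc7a11, Slc11a2, Slc25a22 and Slc35a5), these 4 had exactly 1 promoter in the RefSeq table for GRCm38.p6, from 250 bases before to 50 bases after the start. They are Slc2a6 at chr2:27027949-27028248 (minus strand), Slc7a11 at chr3:50443564-50443863 (minus), Slc5a3 at chr16:92058072-92058371 (plus) and Slc35a5 at chr16:45158624-45158923 (minus), each given 5′ to 3′ on its own strand. Capitals mark matches, on either strand, to the NF-kB pattern GGGNNNNNCC, the interferon pattern GAS, TTCNNNGAA, the interferon pattern ISRE, TTTCNNTTTC, or the amino acid response pattern CARE, TGATGNAA, which ATF4 binds. Matches of 1 pattern can overlap.
Slc2a6: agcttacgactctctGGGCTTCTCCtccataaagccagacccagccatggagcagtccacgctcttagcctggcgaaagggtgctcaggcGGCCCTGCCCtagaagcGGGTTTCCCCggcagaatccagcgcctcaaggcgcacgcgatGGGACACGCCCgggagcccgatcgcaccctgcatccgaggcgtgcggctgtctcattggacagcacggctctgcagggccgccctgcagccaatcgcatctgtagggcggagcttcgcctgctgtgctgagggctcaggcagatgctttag
Slc7a11: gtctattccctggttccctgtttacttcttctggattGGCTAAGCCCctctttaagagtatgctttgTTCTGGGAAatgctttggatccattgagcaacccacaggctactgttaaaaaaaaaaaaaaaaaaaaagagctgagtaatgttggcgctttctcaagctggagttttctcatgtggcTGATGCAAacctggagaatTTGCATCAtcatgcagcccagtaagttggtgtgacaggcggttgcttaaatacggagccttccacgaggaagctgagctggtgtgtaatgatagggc
Slc5a3: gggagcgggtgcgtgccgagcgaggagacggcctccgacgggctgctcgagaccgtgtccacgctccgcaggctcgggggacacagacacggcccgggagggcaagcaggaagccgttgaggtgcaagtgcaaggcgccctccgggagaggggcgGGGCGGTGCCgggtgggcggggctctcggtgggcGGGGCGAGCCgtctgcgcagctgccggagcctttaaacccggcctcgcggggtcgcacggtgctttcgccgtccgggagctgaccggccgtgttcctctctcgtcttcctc
Slc35a5: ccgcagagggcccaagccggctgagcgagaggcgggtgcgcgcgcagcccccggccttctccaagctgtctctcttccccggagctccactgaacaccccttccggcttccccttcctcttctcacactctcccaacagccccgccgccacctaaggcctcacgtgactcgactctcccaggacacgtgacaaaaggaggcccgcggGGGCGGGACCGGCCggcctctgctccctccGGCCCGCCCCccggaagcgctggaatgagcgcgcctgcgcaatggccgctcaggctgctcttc

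In the Slc7a11 promoter the CARE pattern matched at −66 and −47 from the start, on opposite strands, GAS at −183 and the NF-kB pattern at −213. Among promoters of carriers that rose in co-culture, the CARE pattern stood in 1 of 18 (5.56%), that of Slc7a11 itself. It stood in 0 of 13 of those that fell (0%), 2.78% of all carrier promoters and 3.97% of all 32851 promoters of the table. The Slc2a6 promoter held 5 overlapping or separate NF-kB matches, that of Slc35a5 held 3 and that of Slc5a3 held 2. This pattern was in 50.8% of all promoters and in 63.9% of the 144 promoters of the 106 carriers in the table. Of the promoters of carriers called in co-culture, 55.6% of 18 among those that rose and 84.6% of 13 among those that fell held it. GAS stood in 2 promoters of carriers that rose (11.1%), 1 of those that fell (7.69%) and 8.3% of all. ISRE stood in 1 of those that rose (5.56%), 0 of those that fell (0%) and 3.44% of all. A match is a description of the letters and not a bound site.

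The antibody against PD1 made no carrier pass relative to isotype. Of 141 carriers 0 were called by limma, as were 0 of 12707 genes (0%), and 5 carriers and 347 genes had an unadjusted p under 0.05. The 5 were Slc25a17, a peroxisomal carrier (0.52 ± 0.15), Slc27a1 (1.36 ± 0.41), Slc20a2 (0.78 ± 0.24), Slc5a3 (−0.32 ± 0.13) and Slc38a7 (0.41 ± 0.18), all with an adjusted p of 1.00. The interval of the anti-PD1 difference ran from −1.15 to 0.89 for Slc2a6, −0.44 to 0.55 for Slc7a2, −0.23 to 0.28 for Slc7a11 and −0.27 to 0.73 for Slc25a22. The count was 0 under every alternative.

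TNF alone called no solute carrier. Among all genes 35 (0.275%) were called, 33 up (0.259%) and 2 down (0.0157%), and 8 carriers and 797 genes reached an unadjusted p under 0.05 with limma. The smallest p-values belonged to Slc4a7 (0.49 ± 0.13), Slc25a25 (0.83 ± 0.24), Slc7a2, Slc27a1 (1.35 ± 0.43) and Slc7a11 (0.51 ± 0.18), each with both TNF libraries above both untreated ones, as for 21.5% of all genes, and adjusted p-values of 0.364 to 0.682. Slc7a11 stood at 5.00 and 4.76 log2 CPM with TNF, against 4.49 and 4.25 in untreated cells. The count of carriers was 0 under every alternative.

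IFNG alone also called none, where 45 genes (0.354%) rose and 0 (0%) fell, and 12 carriers and 1361 genes had an unadjusted p under 0.05. Those with the smallest p were all lower with IFNG: Slc6a6 (−1.19 ± 0.39), Slc25a17 (−0.84 ± 0.28), Slc20a2 (−1.92 ± 0.67), Slc38a10 (−0.59 ± 0.21) and the mitochondrial carrier Slc25a16 (−1.29 ± 0.45), with adjusted p-values of 0.421 to 0.435. With only the IFNG and untreated libraries fitted, 5 carriers passed, all of them lower, as did 488 of all genes tested, 371 of them lower. That fit was filtered anew on those libraries, so it may have tested fewer than 12720 genes.

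Supernatant called none either, where 57 genes (0.448%) rose and 0 (0%) fell, and 10 carriers and 652 genes had an unadjusted p under 0.05. The smallest p belonged to Slc38a2, at 5.84 and 6.10 log2 CPM with supernatant, against 6.51 and 6.57 in untreated cells (−0.57 ± 0.17, adjusted p = 0.555). Slc27a1 (1.26 ± 0.43), the mitochondrial carriers Slc25a33 (−0.44 ± 0.16) and Slc25a40 (0.53 ± 0.20), and the anion exchanger Slc4a2 (−0.42 ± 0.17) followed, with adjusted p up to 0.864. The count was 0 under every alternative.

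TNF + IFNG together was the in vitro treatment that called carriers. Of 141, 5 rose and 4 fell, or 6.38%, where 9.02% of all 12720 genes were called, 4.77% upward and 4.25% downward, so the share of carriers was not above the background. The median log2 fold was −0.17, against 0.02 over all genes. The second TNF + IFNG library had the lowest implied depth in vitro, 3360000 reads. The libraries of this group correlated at 0.948 over all genes, the lowest of the in vitro groups. None of the 9 calls held in every fit with 1 library left out. The count was 0 without either untreated library, 1 without either IFNG library, 2 without either TNF library or the second TNF + IFNG library, and 24 without either supernatant library, while all 9 kept their sign in every alternative.

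Slc7a5, the large neutral amino acid exchanger, had the smallest p. It stood at 5.07 and 4.57 log2 CPM with TNF + IFNG, against 5.93 and 6.33 in untreated cells, with 5.44 to 5.89 in the TNF, IFNG and supernatant libraries. The TNF + IFNG libraries were the lowest in the table, and Slc7a5 fell by 1.31 ± 0.23 on the log2 scale (adjusted p = 0.0191). This is opposite in sign to its rise in co-culture. Its adjusted p was 0.059 when the first untreated library was left out and 0.152 when the second was.

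The vitamin, taurine and acetyl-CoA carriers that fell shared a pattern over the libraries. Slc6a6, which imports taurine, stood at 6.09 and 6.62 log2 CPM with TNF + IFNG, against 7.93 and 8.26 in untreated cells (−1.74 ± 0.39, adjusted p = 0.0345). Slc33a1, which carries acetyl-CoA into the endoplasmic reticulum, stood at 0.77 and 2.15 with TNF + IFNG, against 3.58 and 3.77 in untreated cells (−2.22 ± 0.54, adjusted p = 0.0413). Slc19a2, which imports thiamine, stood at 0.25 and 1.38, against 2.93 and 3.69 in untreated cells (−2.49 ± 0.64, adjusted p = 0.0466). In all 3 the first supernatant library lay near the untreated cells, at 8.09, 3.74 and 3.35, and the second near the cytokine-treated cells, at 6.73, 2.29 and 1.35. The same split between the supernatant libraries was seen for Slc20a2 (3.91 and 2.11) and Slc25a22 (3.06 and 1.29), neither of which was called with TNF + IFNG. The supernatant libraries also differed over all genes, with a Pearson correlation of 0.954, against 0.967 to 0.971 within the TNF, untreated and IFNG groups. How many of all genes showed this split was not counted.

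Of the carriers that rose, Slc25a25, the ATP-Mg and phosphate carrier, stood at 3.06 and 3.33 log2 CPM with TNF + IFNG, against 1.78 and 2.14 in untreated cells (1.24 ± 0.24, adjusted p = 0.0244). Slc4a7 stood at 6.29 and 6.41, against 5.78 and 5.76 in untreated cells (0.58 ± 0.13, adjusted p = 0.0342), and its TNF libraries were at 6.28 and 6.23. Slc25a37, the mitochondrial iron importer, stood at 7.03 and 7.03, against 6.41 and 6.44 in untreated cells (0.61 ± 0.15, adjusted p = 0.0443). These 3 also rose with isotype in co-culture. Slc35a4 rose by 0.73 ± 0.18 (adjusted p = 0.0412), and Slc17a8, a vesicular glutamate carrier known from neurons, stood at 1.22 and 1.04, against −0.89 and −0.87 in untreated cells (2.01 ± 0.50, adjusted p = 0.0435), a level near the floor.

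**Figure D4:**
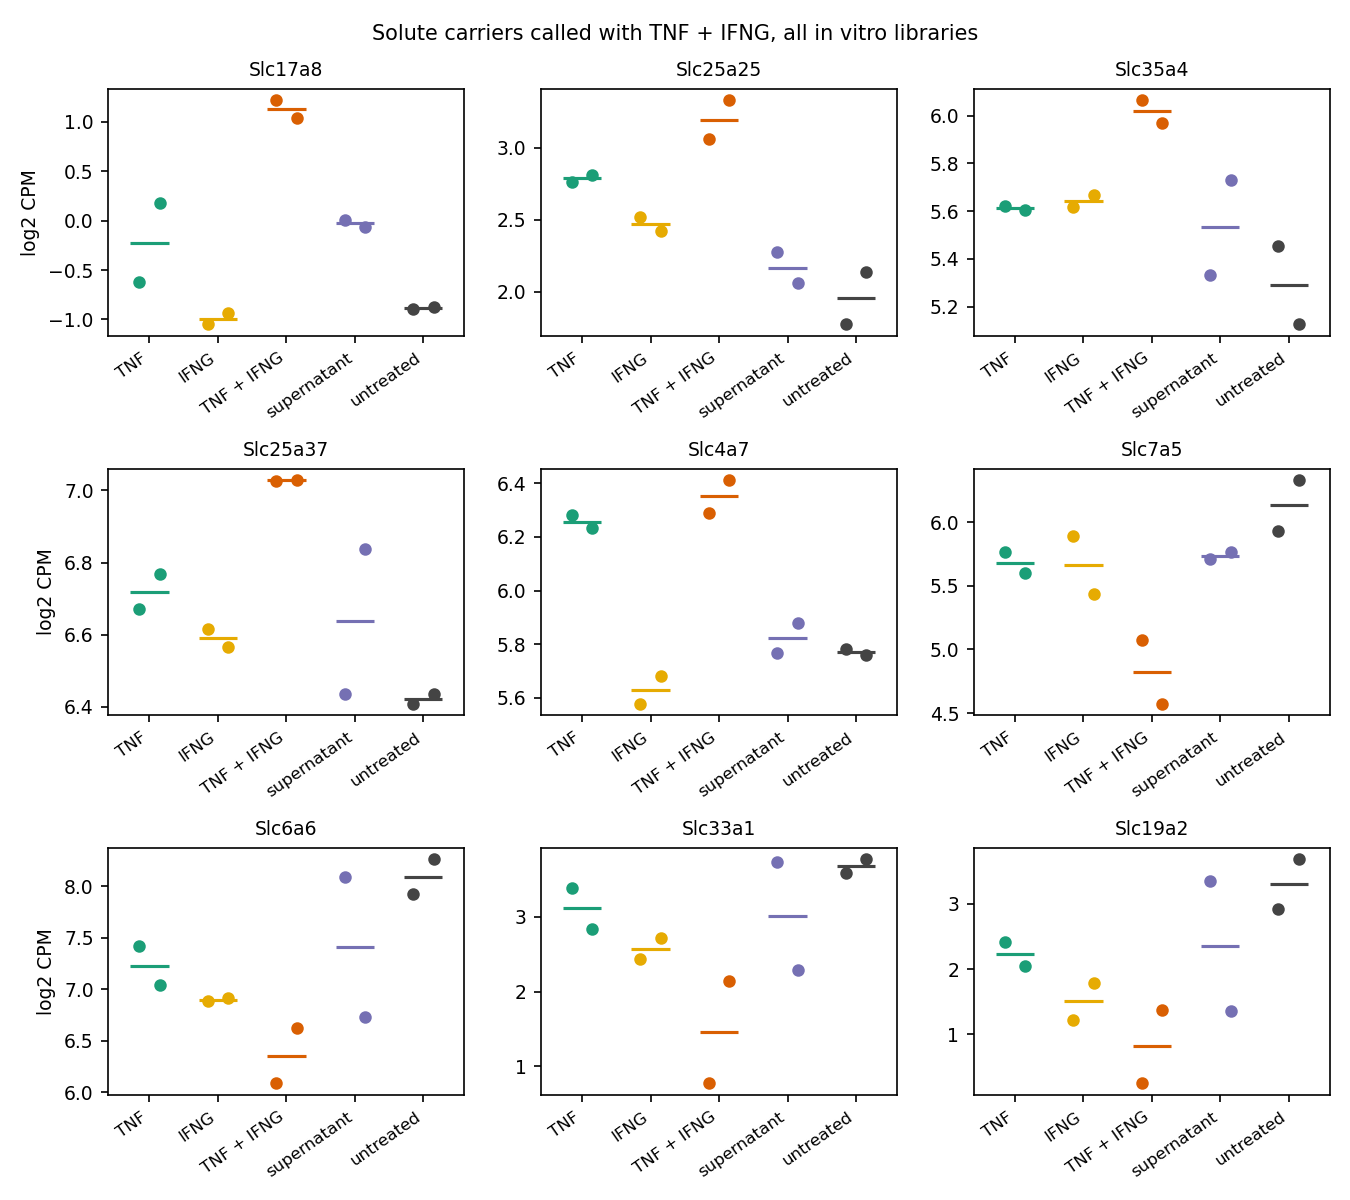
Each panel shows 1 of the 9 solute carriers called with TNF + IFNG, with log2 CPM on the vertical axis, 1 point per library and a line at the group mean, for TNF, IFNG, TNF + IFNG, supernatant and untreated cells. The 2 supernatant libraries lie far apart for Slc6a6, Slc33a1 and Slc19a2, and the TNF + IFNG libraries of Slc7a5 are the lowest of the 10.

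The test of whether both cytokines together differed from the sum of the single changes on the log2 scale called no carrier. Over all genes 2 were called (0.0157%), 1 up and 1 down (0.00786% each). With limma, 3 carriers and 500 genes reached an unadjusted p under 0.05. The carriers were the copper carrier Slc31a2 (−1.34 ± 0.42), Slc25a28 (0.89 ± 0.34) and Slc35a1 (−0.76 ± 0.30), each with an adjusted p of 0.962. With supernatant against TNF + IFNG no carrier was called either, where 30 genes (0.236%) were, 8 up (0.0629%) and 22 down (0.173%), and 26 carriers and 2132 genes had an unadjusted p under 0.05. Slc25a25 stood at −1.02 ± 0.24 and Slc7a5 at 0.92 ± 0.23 in that comparison (adjusted p = 0.13 and 0.148). The comparisons in vitro share the untreated libraries or the TNF + IFNG libraries. Leaving out the second supernatant library gave 4 carriers and leaving out the first TNF + IFNG library gave 2.

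Of the 9 carriers called with TNF + IFNG, 5 were among the 32 of 141 called in either co-culture comparison. Slc25a25, Slc25a37, Slc4a7 and Slc35a4 rose in both, and Slc7a5 fell with TNF + IFNG and rose in co-culture. Of the 141 carriers 105 were called in none of the 9 comparisons. These counts were not made over all genes, so they describe the carriers and do not set them apart from other genes. Across the 141, the log2 folds of TNF + IFNG and of OT1 with isotype had a Pearson r of 0.139 and a Spearman rho of 0.172, against 0.311 and 0.163 over the 12165 genes tested in both tables. With anti-PD1 in place of isotype they were 0.021 and 0.028, against 0.219 and 0.038 over all these genes. For TNF, IFNG and supernatant against either co-culture, r over the carriers ran from −0.264 (IFNG and anti-PD1) to 0.142 (TNF and isotype), against 0.119 and 0.18 over all genes for these pairs. These are descriptions across genes, which are not independent replicates, and the genes of a table share its libraries. Slc5a3 was lower with TNF + IFNG, as in co-culture, but was not called in vitro. It stood at 7.56 and 7.71 log2 CPM with TNF + IFNG and 8.00 and 7.75 with supernatant, against 8.23 and 7.87 in untreated cells. Its log2 fold with TNF + IFNG was −0.42 ± 0.16 (limma, adjusted p = 0.123).

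**Figure D5:**
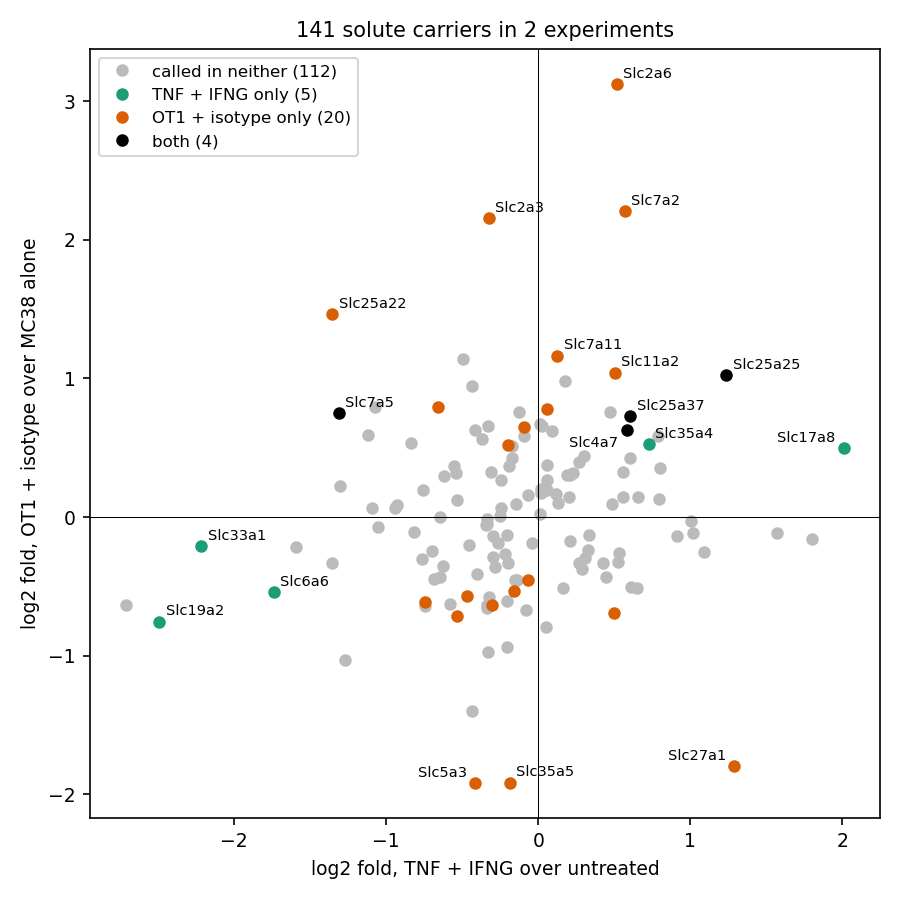
Each point is 1 of 141 solute carriers, with its log2 fold for TNF + IFNG over untreated on the horizontal axis and for OT1 with isotype over MC38 alone on the vertical axis; colour marks the comparison in which it was called. In these 2 comparisons 4 were called in both, 5 with TNF + IFNG alone, 20 with isotype alone and 112 in neither.

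The genes named most often lie, in GENCODE M21 coordinates on GRCm38, as follows. Slc2a6 spans chr2:27021363-27027998 on the minus strand, Slc7a11 chr3:49892526-50443614 on the minus strand, and Slc5a3 chr16:92058322-92087473 on the plus strand. The arginine carriers Slc7a2 and Slc7a1 span chr8:40862396-40922308 (plus) and chr5:148327410-148399904 (minus), and Slc7a5 chr8:121881150-121907694 (minus). Slc25a22 spans chr7:141429744-141437892 (minus), Slc11a2 chr15:100387898-100425072 (minus), Slc30a4 chr2:122681233-122702663 (minus) and Slc39a1 chr3:90248172-90253612 (plus). All are protein-coding genes, and the reads came from the 3' end of their transcripts.

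Transporters outside the Slc numbering were counted in the same way. Of 36 other transporters tested in co-culture, 6 rose and 2 fell with isotype and 5 rose and 2 fell with anti-PD1, where 13.9% and 16.1% of all genes were called. Tap1, which carries peptides for MHC class I, rose by 2.86 ± 0.19 with isotype and 2.74 ± 0.19 with anti-PD1 on the log2 scale (adjusted p = 4.9e-06 and 6.59e-06). Of 21 ABC transporters 1 rose with isotype, the drug exporter Abcb1b (0.68 ± 0.15, adjusted p = 0.0149). With anti-PD1 Abcb1b rose (0.64 ± 0.15, adjusted p = 0.0195) and the exporter Abcg2 fell (−1.29 ± 0.36, adjusted p = 0.0363). With TNF + IFNG 2 of 35 other transporters rose, Tap1 among them, and 2 fell, and Abcb1b was the 1 of 23 ABC transporters that rose (0.92 ± 0.19, adjusted p = 0.0295), where 9.02% of all genes were called.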

How the data were processed

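Libraries of 19 MC38 samples were made with the QuantSeq 3' kit, per the labels' protocols. HISAT2, featureCounts of Subread, cutadapt 1.7, FastQC and limma stand in the submitters' processing notes, with GRCm38 and mm10, without order or settings. The deposited values are log2 CPM, a unit read from the values, whose linear sums lie between 993229 and 998505. Within each table the libraries share 1 maximum, which is what quantile normalization gives, though no source used here names that step. A shift of most transcripts together cannot be seen in such values, and tests were made only within a table.

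All groups of a table were fitted with limma 3.58.1 in R 4.3.3, with an intensity trend, 2-sided, adjusted by Benjamini-Hochberg over the 12720 in vitro or 12707 co-culture genes with a log2 value of at least 0 in at least 2 or 3 libraries. All 141 carriers passed the filter in both tables. Depth was implied from the steps between low values, on the assumption that every whole count occurs. The fit was checked on simulated data. The alternatives were no trend, only the groups compared, the replicate number as a block, no filter, a stricter filter (log2 of at least 2), a pseudocount of 1 CPM, and each library left out. Carriers are named where called, where highest, or where on a reported list; where fewer than 5 were called, the 5 smallest p-values are named. Tap1, Abcb1b and Abcg2, and the promoter set, were chosen after their values were seen. The members and lists were chosen with earlier results of these data known. Promoter sequences are from RefSeq, and amino acid sequences were not used here.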

Additional observations from a re-analysis of the deposited data

How the results depend on the processing

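No called carrier changed sign under any alternative, and 14 of the 24 isotype calls, 13 of the 28 anti-PD1 calls and 0 of the 9 TNF + IFNG calls held under all of them. With only the groups compared, 18 carriers were called with anti-PD1, 15 with isotype, 1 with TNF + IFNG and 5 with IFNG, against 28, 24, 9 and 0. TNF + IFNG gave 3 without the intensity trend. With 1 library left out the counts ran from 15 to 34 (anti-PD1), 16 to 32 (isotype), 0 to 24 (TNF + IFNG), 0 to 4 (supernatant against TNF + IFNG) and 0 to 1 (interaction). Where that left a group in vitro with 1 library, it was assumed to vary like the others. The causes were not tested.

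No clear pairing by replicate number was seen in co-culture. Same-numbered libraries there deviated with correlations of −0.05 to 0.11 and differently numbered ones with −0.10 to 0.07. In vitro same-numbered libraries had −0.29 to 0.09. With 2 libraries a group the deviations mirror each other, so differently numbered libraries had these values with opposite sign. The largest, 0.287, was between supernatant and TNF + IFNG libraries of different number, so pairing under other numbers could not be judged in vitro. In co-culture 4 of 9 libraries correlated best with their own number, and in vitro 0 of 10, where the 2 libraries of a group always go together. With the number as a replicate block, 3 carriers were called with TNF + IFNG, 21 with isotype and 21 with anti-PD1.

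With 2 or 3 libraries a group and 3360000 implied reads in the shallowest, changes well above 0.5 on the log2 scale also went uncalled. In vitro, 7 carriers with TNF, 10 with IFNG, 22 with TNF + IFNG and 3 with supernatant changed at least 2-fold. Of these 0, 0, 6 and 0 were called. In co-culture 13 did so in each comparison with MC38 alone, of which 10 were called with isotype and 11 with anti-PD1. Carriers near 0 log2 CPM rest on few reads.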
